A study of Mus musculus with 6 samples.

Results

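The genes examined here are 10 members of the p53 target and GADD45 group, taken by name from the liver count table: Cdkn1a, Mdm2, Ccng1, Bax, Trp53inp1, Sesn2, Btg2, Gadd45a, Gadd45b and Gadd45g. All 10 were found among the 55385 genes of the table and all 10 had enough counts to be tested. Poly(A) RNA was sequenced from whole liver tissue of wild-type C57BL/6 male mice that were 6 to 8 weeks old when a high-fat diet (HFD) began. After 10 weeks of HFD, 3 mice underwent vertical sleeve gastrectomy (VSG, removal of most of the stomach) and 3 a sham operation, and both groups then stayed on HFD for 12 further weeks. HFD was thus common to both groups, and the comparison asks how these genes differ between VSG and sham livers under it.

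p53, encoded by Trp53, is a transcription factor that is held at a low level by the ubiquitin ligase Mdm2 and accumulates after DNA damage and other stress. It then raises the transcription of genes that stop the cell cycle (Cdkn1a, Btg2), restrain p53 itself (Mdm2, Ccng1), promote cell death or autophagy (Bax, Trp53inp1) and limit oxidative stress and growth signalling (Sesn2). The GADD45 proteins are small stress-induced proteins that bind PCNA and activate the p38 and JNK kinases, and in liver they also respond to hormones, fasting and inflammatory signals. Several of these genes have inputs other than p53, so their levels are no direct measure of p53 activity.

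None of the 10 genes passed an adjusted p of 0.05 (edgeR's quasi-likelihood test with Benjamini-Hochberg adjustment over all genes), where 14.7% of the 14454 genes tested did. At an unadjusted p under 0.05, 3 of the 10 differed, all lower after VSG (Cdkn1a, Ccng1 and Trp53inp1), where 17% of all genes tested were lower by that rule. DESeq2 called 2 of the 10 (Cdkn1a and Trp53inp1, both lower, where it called 10.3% of its genes lower) and limma-voom 0 (12.9% of all genes). The log2 fold change (VSG minus sham) was negative for 7 and positive for 3 of the genes, with a median of -0.25 beside 0.03 over all genes tested. With total-count scaling, which moved the median of all genes to -0.11, Bax and Btg2 turned negative as well. In 4 of the 10 the 3 VSG libraries lay wholly below the 3 sham libraries (Cdkn1a, Ccng1, Trp53inp1 and Gadd45b), where that held for 19.8% of all genes tested.

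Total counts ran from 22804397 to 24191778 per library, and levels are given as CPM (counts relative to library size, with TMM scaling between libraries). Mitochondrial transcripts took from 5.59% to 6.58% of counts in sham and from 4.14% to 5.01% in VSG libraries, with no overlap. Sham replicate 2 had the highest share and the fewest genes detected (20873, against 21313 to 21815). The livers had hepatocyte markers at high levels (summed level of 6 markers from 60994 to 97264 CPM in sham and from 44707 to 70191 CPM in VSG). All 12 neutrophil markers were higher after VSG at an adjusted p under 0.05 (edgeR), with a summed level from 2.97 to 15.2 CPM in sham and from 155 to 1899 CPM in VSG. All 10 acute phase genes were higher as well (8936 to 9466 CPM in sham, 30075 to 77245 CPM in VSG). Of 8 macrophage markers 4 were higher (345 to 730 against 742 to 2165 CPM), and of 8 stellate cell markers 1 was lower (636 to 997 against 307 to 612 CPM). All 8 stellate cell markers had a negative log2 fold change (VSG minus sham), with a median of -1.11 beside 0.03 over all genes tested. No dividing cell marker of 8 passed, with 12.4 to 41.6 CPM in sham and 12.0 to 127 CPM in VSG. In each of the neutrophil, acute phase and macrophage sums VSG replicate 4 was the highest of the VSG libraries and VSG replicate 5 the lowest. The part of the mitochondrial share and of these cell types in the values below was not tested, and in whole tissue fewer cells of a type and less RNA per cell cannot be told apart.

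The promoters of these genes are shown first, because p53 acts on its targets through a short DNA motif. RefSeq (GRCm38.p6, the assembly that mm10 names) gave windows of 250 bases before to 50 after the start site for 9 of the 10 genes, 2 of them for Cdkn1a. The p53 half-site, the unit of which the p53 element holds a pair, was searched on both strands with no mismatch. It was present in windows of 5 of the 9 genes (Cdkn1a, Ccng1, Mdm2, Bax and Gadd45a), while 8.36% of all 32851 promoter windows held it. Of the 2 Cdkn1a windows, the upstream window, printed below, held 2 half-sites 12 bases apart, and the other held none. Such a pair within 13 bases was held by 0.0731% of all windows. Pairs that include a mismatched half-site were not searched, so these 2 matches need not mark the full p53 element. These are matches of letters and no evidence of binding. In the sequences below, cut where an annotated exon begins, capitals mark the half-site.
Cdkn1a, chr17:29090729-29090975, plus strand: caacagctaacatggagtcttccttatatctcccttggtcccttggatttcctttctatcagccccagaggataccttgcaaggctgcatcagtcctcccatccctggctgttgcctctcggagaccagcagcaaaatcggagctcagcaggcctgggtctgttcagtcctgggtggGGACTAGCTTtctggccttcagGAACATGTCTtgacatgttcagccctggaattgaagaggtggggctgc
Ccng1, chr11:40755312-40755536, minus strand: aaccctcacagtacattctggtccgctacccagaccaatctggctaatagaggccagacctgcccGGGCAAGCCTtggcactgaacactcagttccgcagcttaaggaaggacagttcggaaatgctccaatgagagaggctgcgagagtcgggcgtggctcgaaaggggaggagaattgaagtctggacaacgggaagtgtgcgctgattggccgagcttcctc
Mdm2, chr10:117710759-117711008, minus strand: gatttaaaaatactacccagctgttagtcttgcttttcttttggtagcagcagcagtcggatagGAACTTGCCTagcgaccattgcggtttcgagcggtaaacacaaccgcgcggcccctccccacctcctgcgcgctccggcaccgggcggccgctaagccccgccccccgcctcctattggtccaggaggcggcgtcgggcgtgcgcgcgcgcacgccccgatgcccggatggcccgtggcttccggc
Bax, chr7:45466899-45467148, minus strand: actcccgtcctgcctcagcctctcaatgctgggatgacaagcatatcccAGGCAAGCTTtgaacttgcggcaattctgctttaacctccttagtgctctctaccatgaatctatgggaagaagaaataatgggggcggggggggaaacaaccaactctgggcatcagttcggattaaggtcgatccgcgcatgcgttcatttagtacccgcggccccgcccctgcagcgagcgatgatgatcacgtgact
The match of Gadd45a, GGGCTAGCCC, lay from position -40 to -31 before its RefSeq start site, inside an exon of the GENCODE annotation. Windows of Btg2, Sesn2, Gadd45b and Gadd45g held no half-site. Those of Gadd45b and Gadd45g held a TATA box (TATAAA, 13.6% of all windows), unlike the other 7 genes, and each also held an E-box (CACGTG, 7.15% of all windows), as did that of Bax. Their sequences are shown because both genes varied most between libraries, through high values in sham replicate 2, with the TATA box in capitals. A link between the motif and that variation was not tested.
Gadd45b, chr10:80929841-80930072, plus strand: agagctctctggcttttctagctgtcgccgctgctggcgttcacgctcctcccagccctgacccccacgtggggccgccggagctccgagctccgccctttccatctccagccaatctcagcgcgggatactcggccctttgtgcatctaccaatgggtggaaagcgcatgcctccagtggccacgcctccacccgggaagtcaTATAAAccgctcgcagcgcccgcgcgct
Gadd45g, chr13:51846425-51846674, plus strand: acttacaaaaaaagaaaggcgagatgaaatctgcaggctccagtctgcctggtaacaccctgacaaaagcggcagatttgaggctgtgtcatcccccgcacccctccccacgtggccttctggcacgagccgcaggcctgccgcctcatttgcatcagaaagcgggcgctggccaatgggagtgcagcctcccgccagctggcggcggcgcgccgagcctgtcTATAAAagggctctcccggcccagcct

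Among the genes that halt the cell cycle, Cdkn1a was lower in every VSG library than in any sham library, while Btg2 was not. Cdkn1a (ENSMUSG00000023067.14, chr17:29090976-29100727, plus strand) encodes p21, the cyclin-dependent kinase inhibitor through which p53 arrests cells. Its level was 27.1, 41.9 and 30.7 CPM in sham replicates 1, 2 and 3 and 22.6, 8.04 and 13.2 CPM in VSG replicates 4, 5 and 6. The highest VSG library was close to the lowest sham library, and the other VSG libraries were well below. Group means of 33.2 ± 7.73 CPM (sham) and 14.6 ± 7.40 CPM (VSG; SD, n = 3) gave a log2 fold change of -1.19 (SE 0.369, 95% interval -2.06 to -0.31). The adjusted p was 0.0745 by edgeR. It ranged from 0.0107 (DESeq2) to 0.2 over 12 alternatives and was under 0.05 in 4 of them: DESeq2 (0.0107), no filter beyond 1 count (0.0299, where 4.7% of all genes were called lower), total-count scaling (0.0415, where 10.5% were) and the fit without VSG replicate 4 (0.0300). In that last fit the log2 fold change was -1.65, and 3.95% of all genes were called lower. Of its 3553 exon bases, 273 lie opposite a transcript (AC167363.2) that had 4 counts in all libraries together.

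Btg2 (ENSMUSG00000020423.6, chr1:134075170-134079120, minus strand) encodes an antiproliferative protein that recruits the CCR4-NOT deadenylase. Its sham libraries were at 39.8, 37.1 and 31.6 CPM and its VSG libraries at 49.4, 21.2 and 44.0 CPM. The VSG libraries spanned the sham range on both sides, with replicate 5 lowest. VSG exceeded sham by a log2 fold change of 0.08 (SE 0.298, 95% interval -0.63 to 0.79, adjusted p 0.872 by edgeR), and its sign turned in 5 of 12 alternatives.

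**Figure D1:**
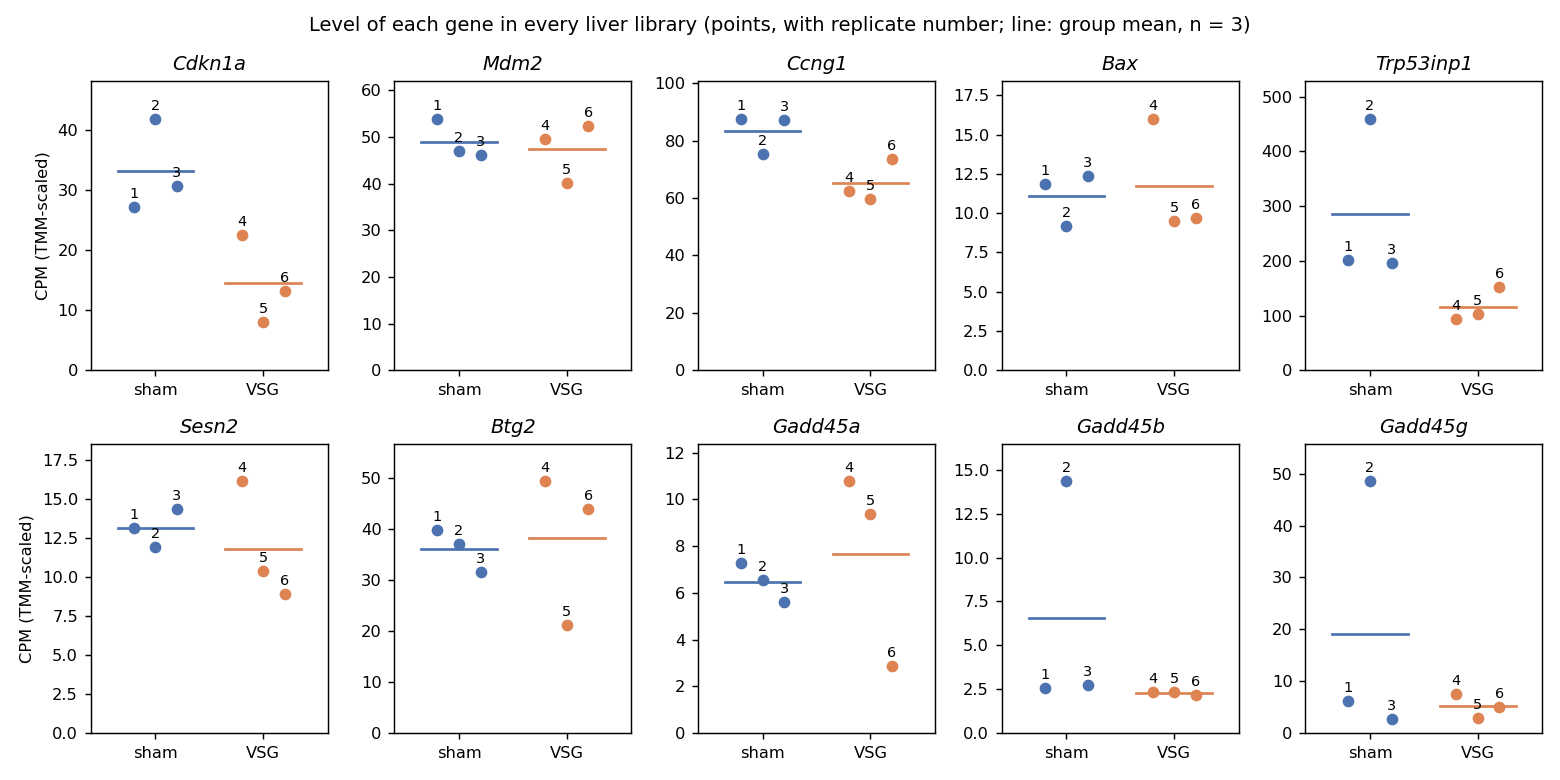
Level of the 10 genes in each liver library (y axis: CPM with TMM scaling, from 0), by group on the x axis, with points numbered by replicate and a line at the group mean (n = 3). Sham replicate 2 stands far above the rest for Trp53inp1 (460 CPM), Gadd45b (14.3 CPM) and Gadd45g (48.5 CPM), while the VSG points of Cdkn1a and Ccng1 all lie below the sham points.

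Of the genes that restrain p53, Ccng1 was slightly lower after VSG and Mdm2 was at a similar level in both groups. Ccng1 (ENSMUSG00000020326.7, chr11:40748552-40755311, minus strand) encodes cyclin G1, which recruits a phosphatase to Mdm2. Its level was 87.6, 75.3 and 87.1 CPM in the sham and 62.4, 59.8 and 73.7 CPM in the VSG libraries. The groups did not overlap, but sham replicate 2 and VSG replicate 6 nearly met. A log2 fold change of -0.35 (SE 0.119, 95% interval -0.63 to -0.07) had an adjusted p of 0.0904 by edgeR, and from 0.0685 to 0.243 over the alternatives.

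Mdm2 (ENSMUSG00000020184.15, chr10:117688875-117710758, minus strand), the ligase that marks p53 for degradation and is itself a p53 target, was at 53.9, 46.9 and 46.1 CPM in sham and 49.5, 40.1 and 52.3 CPM in VSG libraries. These values were intermixed. The log2 fold change was -0.05 (SE 0.128, adjusted p 0.806 by edgeR), and its 95% interval from -0.35 to 0.26 was the narrowest of the 10 apart from that of Ccng1.

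Of the cell death and autophagy genes, Trp53inp1 was lower after VSG in every library and Bax was not. Trp53inp1 (ENSMUSG00000028211.11, chr4:11156431-11174379, plus strand) encodes a stress protein that acts in p53 signalling and autophagy. It was at 202, 460 and 196 CPM in the sham libraries and 93.7, 102 and 152 CPM in the VSG libraries. Sham replicate 2 was 2.27 times the next highest library, and the remaining sham libraries were also above all VSG libraries. Means were 286 ± 151 CPM (SD, n = 3) and 116 ± 31.2 CPM, with a log2 fold change of -1.30 (SE 0.379, 95% interval -2.20 to -0.40) and an adjusted p of 0.0637 by edgeR. Without sham replicate 2 the log2 fold change was -0.78 (SE 0.225, adjusted p 0.0963). Over the alternatives the adjusted p ran from 0.00513 to 0.143, with 3 under 0.05: DESeq2 (0.00513), no filter beyond 1 count (0.0262) and total-count scaling (0.0225).

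Bax (ENSMUSG00000003873.11, chr7:45461697-45466898, minus strand), which permeabilises the outer mitochondrial membrane, was at 11.9, 9.18 and 12.3 CPM in sham and 16.0, 9.53 and 9.68 CPM in VSG libraries. VSG replicate 4 was the highest of all 6 libraries and the other VSG libraries lay within the sham range. Their difference was a log2 fold change of 0.08 (SE 0.239, 95% interval -0.49 to 0.65, adjusted p 0.841 by edgeR), and it was -0.21 without VSG replicate 4. Gm45808, annotated on the same strand over 192 of its 1576 exon bases, had 0 counts.

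Sesn2 (ENSMUSG00000028893.8, chr4:132492032-132510501, minus strand) encodes sestrin 2, a leucine sensor that limits mTORC1 and aids antioxidant defence. It was at 13.1, 11.9 and 14.3 CPM in sham and 16.1, 10.3 and 8.87 CPM in VSG libraries. The VSG libraries lay on both sides of the sham range. The log2 fold change was -0.16 (SE 0.230, 95% interval -0.70 to 0.39, adjusted p 0.658 by edgeR), and without VSG replicate 4 it was -0.45.

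The 3 GADD45 genes differed from each other in how they varied, and none passed the test. Gadd45a (ENSMUSG00000036390.8, chr6:67035096-67037457, minus strand), the family member known as a direct p53 target, was at 7.28, 6.53 and 5.62 CPM in the sham libraries and 10.8, 9.36 and 2.86 CPM in the VSG libraries. VSG replicates 4 and 5 were above all sham libraries and VSG replicate 6 was below all of them. This gave a log2 fold change of 0.24 (SE 0.443, 95% interval -0.81 to 1.3, adjusted p 0.720 by edgeR), 0.64 without VSG replicate 6 and -0.08 without VSG replicate 4. Of its 1764 exon bases, 337 lie opposite exons of the non-coding E230016M11Rik, which had 393 counts in all libraries together, so its values are uncertain to that extent.

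Gadd45b (ENSMUSG00000015312.9, chr10:80930073-80932204, plus strand), an inducible member known for its response to NF-kB and TGF-beta signals, was low in all libraries except sham replicate 2. Its level was 2.59, 14.3 and 2.74 CPM in sham and 2.35, 2.31 and 2.15 CPM in VSG libraries. The counts behind these values were 70, 314 and 72 in sham and 52, 54 and 45 in VSG libraries. The VSG libraries lay below the sham libraries, by a small margin for sham replicates 1 and 3. The log2 fold change of -1.52 (SE 0.693, 95% interval -3.17 to 0.13, adjusted p 0.175 by edgeR) became -0.23 (SE 0.222, adjusted p 0.528) without sham replicate 2, and was -0.95 by limma-voom with all libraries.

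Gadd45g (ENSMUSG00000021453.2, chr13:51846678-51848468, plus strand), an inducible member known for its cytokine response, was also highest in sham replicate 2, but its groups overlapped. It was at 6.2, 48.5 and 2.62 CPM in sham and 7.51, 2.95 and 4.91 CPM in VSG libraries. Sham replicate 2 exceeded the next highest library 6.46-fold, and the other 5 libraries were intermixed. The log2 fold change of -1.89 (SE 1.03, 95% interval -4.35 to 0.56, adjusted p 0.240 by edgeR) turned to 0.21 (SE 0.508, adjusted p 0.812) without sham replicate 2, and was -0.85 by limma-voom with all libraries. The largest fitted change of the 10 genes, like that of Gadd45b, therefore rested on a single library.

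**Figure D2:**
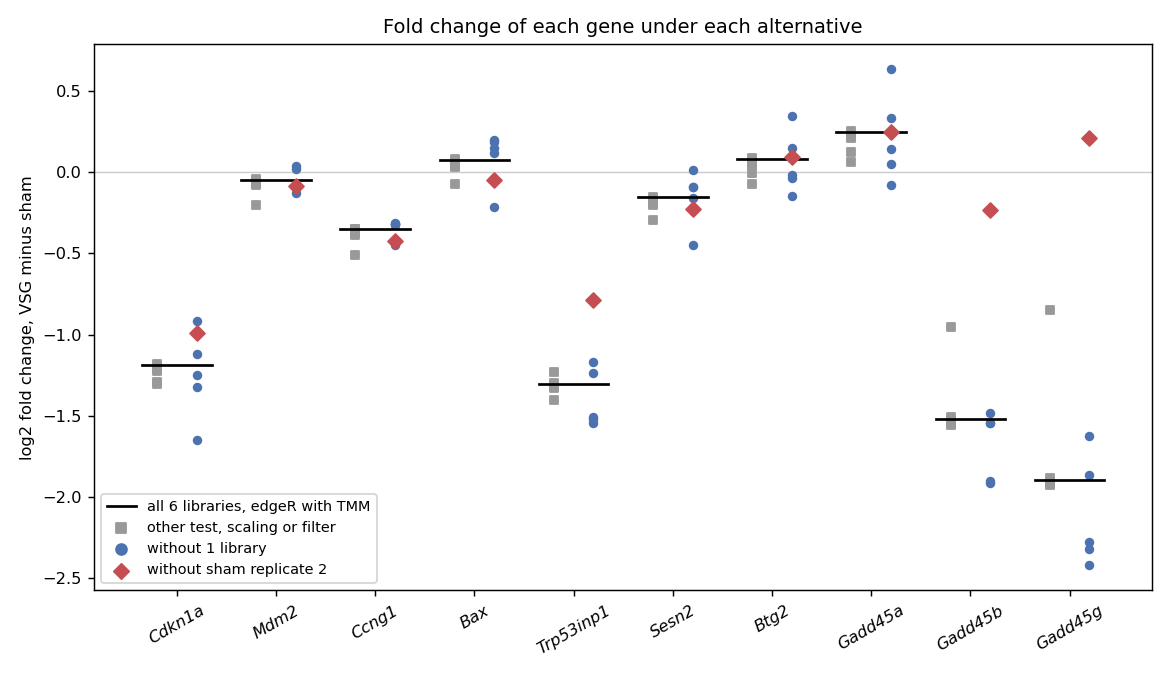
Log2 fold change (y axis, VSG minus sham) of the 10 genes (x axis) in the edgeR fit of all 6 libraries (line), under another test, scaling or filter (squares) and without 1 library (circles, with a diamond for the fit without sham replicate 2). The diamonds of Gadd45b (-0.23) and Gadd45g (0.21) lie near 0, far from their lines at -1.52 and -1.89, while Cdkn1a stays between -1.65 and -0.91.

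Sham replicate 2 was at least 2-fold above each of the other 5 libraries for 3 of the 10 genes (Trp53inp1, Gadd45b and Gadd45g), where this held for 0.519% of all genes tested. VSG replicate 4 held that place for 1.46% of all genes and for none of the 10, and the other 4 libraries for at most 0.249%. Among other p53 targets, Gdf15 and Ddit4 showed the same, with ratios of 2.04 and 3.13 to the next highest library. Ddit4, the mTORC1 inhibitor REDD1, was at 5.61, 33.9 and 6.08 CPM in sham and 10.8, 2.39 and 10.1 CPM in VSG libraries. Its log2 fold change was -0.97 (adjusted p 0.444 by edgeR) with all libraries and 0.40 (adjusted p 0.691) without sham replicate 2. This library was chosen for a closer look after its values were seen.

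The genes nearest in pattern were taken as those of at least 5 CPM with the smallest root mean square distance in log2 CPM, centred on each gene's mean, over the 6 libraries. For Gadd45b, Phf11c and Arl4d were the nearest, at distances of 0.21 and 0.24. In sham replicate 2 these were at 38.2 and 55.0 CPM, above all of their other libraries. For Trp53inp1 they were Sgk1, Lrtm1 and Hpgd, at 0.22, 0.22 and 0.24. For Gadd45g they were Ddit4, Gm15564 and Gm42418, at the larger distances of 0.65, 0.66 and 0.68. Gm42418 was at 5026 CPM in sham replicate 2 and from 434 to 1516 CPM elsewhere.

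Compared per length, as FPKM (CPM per kilobase of exon), Trp53inp1 had the highest mean over all 6 libraries, at 44.2 ± 23.3 in sham and 17.9 ± 4.82 in VSG livers (SD, n = 3). Ccng1 was next with 23.7 ± 1.98 and 18.6 ± 2.09 FPKM, a mean above that of Trp53inp1 in VSG livers. It was followed by Btg2 with 13.2 ± 1.52 and 13.9 ± 5.46 FPKM. In order of their mean over all libraries the others were Gadd45g, Mdm2, Bax, Cdkn1a, Gadd45a, Sesn2 and Gadd45b, the last at 4.13 ± 4.25 and 1.43 ± 0.0683 FPKM. Each gene's range over the 6 libraries overlapped that of the next in this order. The place of Gadd45g depended on sham replicate 2, since its FPKM was 16.3 ± 21.8 in sham and 4.37 ± 1.95 in VSG livers.

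**Figure D3:**
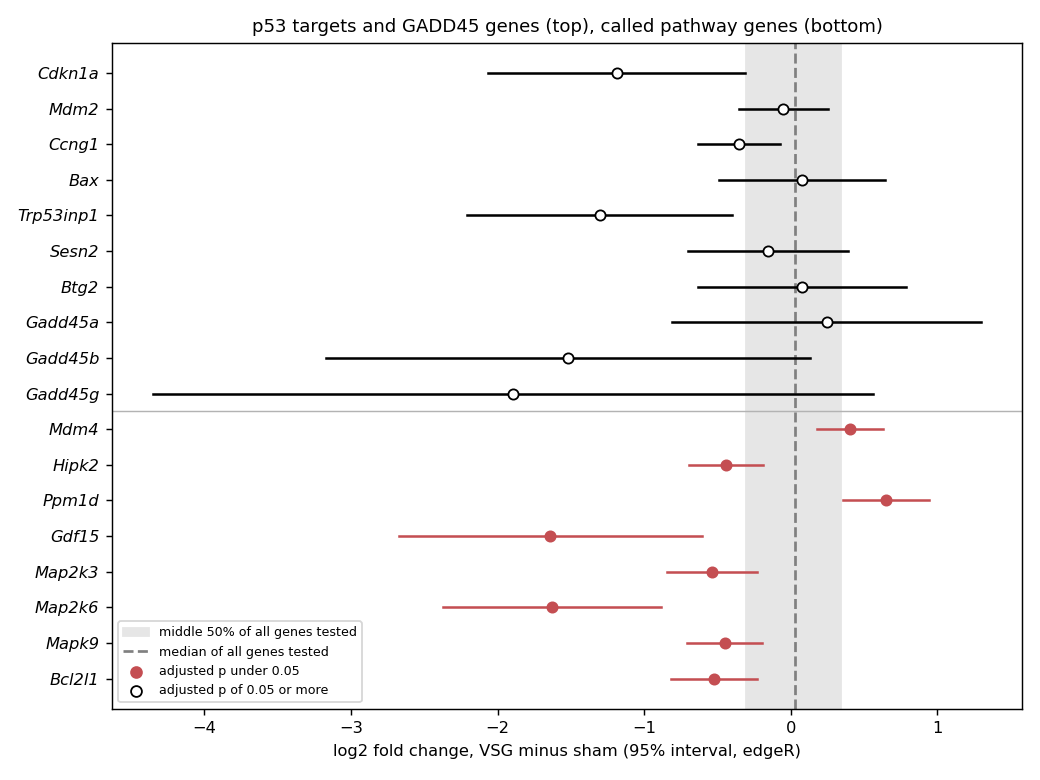
Log2 fold change (x axis, VSG minus sham, edgeR) with its 95% interval for the 10 genes (above the line) and the 8 pathway genes with an adjusted p under 0.05 (below it, filled), beside the median (dashed, 0.03) and the middle 50% (grey) of all genes tested. Intervals of Cdkn1a, Ccng1 and Trp53inp1 lie below 0 without an adjusted p under 0.05, and those of Gadd45b and Gadd45g are the widest.

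The other genes of the pathway were read from 5 lists chosen by role, some of them shared between lists, with 71 genes of which 67 were tested. Of these 8 (11.9%) passed an adjusted p of 0.05, 2 higher and 6 lower, against 14.7% of all genes tested (6.79% higher and 7.87% lower), and their median log2 fold change was -0.09. All 8 calls were lost when sham replicate 2, sham replicate 3 or VSG replicate 6 was left out, fits in which 5.34%, 1.07% and 1.42% of all genes were called.

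Among p53 and its regulators, 2 of 10 tested genes rose and 1 fell. Trp53 itself was at 21.3, 15.8 and 20.0 CPM in sham and 25.9, 22.5 and 21.8 CPM in VSG libraries, a log2 fold change of 0.30 (SE 0.142, 95% interval -0.04 to 0.63) that did not pass (adjusted p 0.193 by edgeR). It was 0.17 without sham replicate 2, the lowest library, and 0.14 with total-count scaling. Both genes that rose encode inhibitors of p53 signalling, while Mdm2, another inhibitor, was not called (log2 fold change -0.05, adjusted p 0.806 by edgeR). Mdm4, the Mdm2 partner that masks the activation domain of p53, rose from 70.6 ± 4.02 to 93.4 ± 4.97 CPM (SD, n = 3), with a log2 fold change of 0.40 and an adjusted p of 0.0361 by edgeR. Ppm1d, the phosphatase Wip1 that reverses the phosphorylation of p53 and is its target, rose from 5.91 ± 0.353 to 9.29 ± 0.178 CPM (log2 fold change 0.65, adjusted p 0.0219 by edgeR). Hipk2, a kinase that activates p53, fell from 75.6 ± 5.63 to 55.7 ± 4.98 CPM (log2 fold change -0.44, adjusted p 0.0396 by edgeR), a call lost in 6 of 12 alternatives (adjusted p up to 0.118). All 12 alternatives gave Mdm4 and Ppm1d a positive sign, but the call of Mdm4 was lost in 8 of them and that of Ppm1d in 4. Total-count scaling was among these for both (adjusted p 0.195 and 0.126). Usp7 and Atr, which had the highest mean CPM of the others (not corrected for length), differed by 0.14 and -0.09 on the log2 scale, with adjusted p-values of 0.353 and 0.570. Trp63 and Trp73, the p53 paralogues, named here after their values were seen, were below the filter on low counts. Counts of Trp63 were 0, 1 and 1 in sham and 18, 8 and 10 in VSG replicates, with no overlap. With no filter beyond 1 count its adjusted p was 0.0103 by edgeR, where 3.68% of all genes were called higher. Trp73 had 1 count in all libraries together.

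Of 26 other p53 targets, 1 fell and none rose at an adjusted p under 0.05, with a median log2 fold change of -0.28. The groups did not overlap in 9, of which 8 were lower after VSG, where 19.8% of all genes lay lower and 19.8% higher in this way. Gdf15, a stress hormone released by the liver, was at 9.6, 25 and 12.3 CPM in sham and 7.33, 4.10 and 3.58 CPM in VSG libraries. Its groups did not overlap, and its log2 fold change of -1.64 (SE 0.434) passed narrowly (adjusted p 0.0498 by edgeR). That call was lost in 8 of 12 alternatives, in which the adjusted p reached 0.155, and without sham replicate 2 the log2 fold change was -1.13. Ei24 and Perp, the others of the list with the highest mean CPM, had log2 fold changes of -0.56 (adjusted p 0.0609) and -0.67 (adjusted p 0.0510) with no overlap of the groups. Phlda3, an inhibitor of AKT named here after its values were seen, was at 4.28, 1.69 and 3.91 CPM in sham and 1.49, 1.11 and 0.906 CPM in VSG libraries. Its adjusted p was 0.0519 with all libraries and 0.0310 without sham replicate 2 (log2 fold change -1.81), where 3.31% of all genes were called lower. It was the 1 gene of the 69 tested that was called in that fit.

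**Figure D4:**
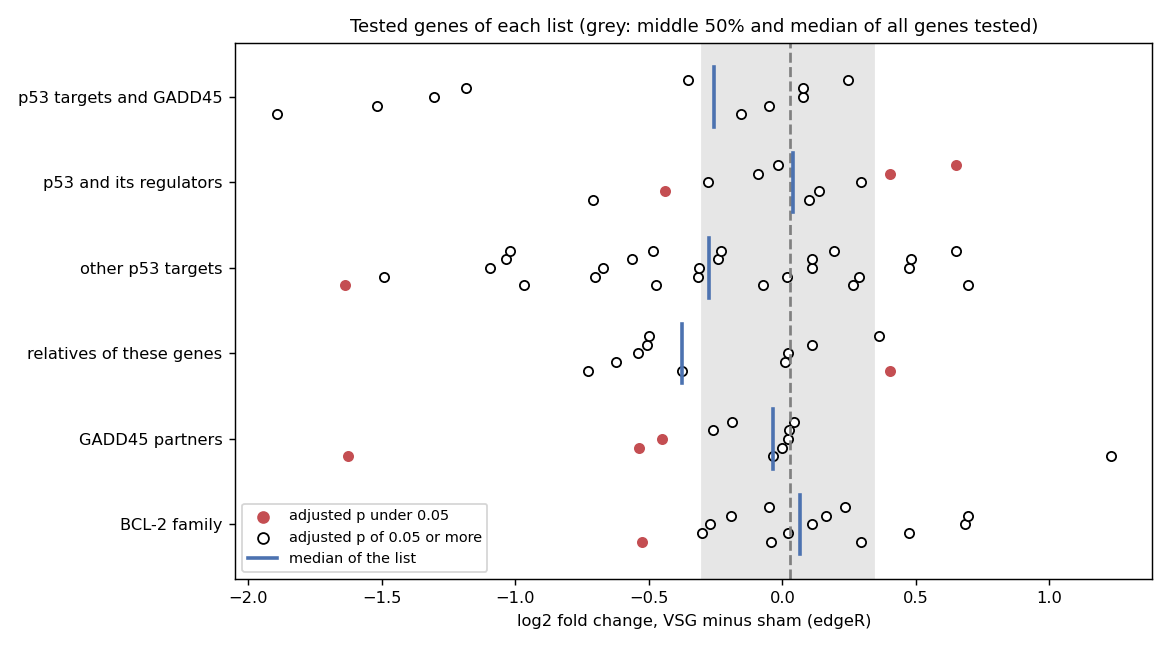
Log2 fold change (x axis, VSG minus sham, edgeR) of each tested gene of the p53 target and GADD45 group and of the 5 pathway lists (rows), with filled points for an adjusted p under 0.05 and a bar at the median of the list, over the median and middle 50% of all genes tested (grey). The 10 genes hold no filled point, and the median of the other p53 targets lies at -0.28.

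Among relatives of the 10 genes, 1 of 11 tested rose (Mdm4) and none fell. Trp53inp2, a paralogue of Trp53inp1, had means of 309 ± 107 CPM (sham) and 217 ± 27.3 CPM (VSG; SD, n = 3), with a log2 fold change of -0.51 and an adjusted p of 0.221 by edgeR. Without sham replicate 2, its highest library, the value was -0.24 (adjusted p 0.518). Tob1, of the family of Btg2, had a log2 fold change of -0.50 (adjusted p 0.101).

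Of 11 partners of the GADD45 proteins in the stress kinase cascade, at the replication fork and in mitosis, 3 fell and none rose. Map2k6, the kinase MKK6 that activates p38, was at 7.5, 13.9 and 10.2 CPM in sham and 3.08, 4.62 and 2.48 CPM in VSG libraries. The groups were well apart, and edgeR gave a log2 fold change of -1.63 (SE 0.313) and an adjusted p of 0.0230. Map2k3, the related kinase MKK3, fell from 70.7 ± 10.6 to 48.6 ± 3.38 CPM (SD, n = 3), a log2 fold change of -0.54 (adjusted p 0.0390 by edgeR). Mapk9, which encodes JNK2, fell from 91.0 ± 6.80 to 66.6 ± 5.97 CPM (log2 fold change -0.45, adjusted p 0.0391 by edgeR). Mapk14, which encodes p38alpha, and Map2k4 had log2 fold changes of 0.02 (95% interval -0.25 to 0.29) and 0.03 (-0.22 to 0.27) and did not pass. The genes that fell act downstream of GADD45 proteins in stress signalling, as do Mapk14, Map2k4 and others of the list that did not pass. Map2k6, Map2k3 and Mapk9 each kept a negative sign in the 12 alternatives. However, Mapk9 lost its call in 5 of them, Map2k3 in 4 and Map2k6 in 4 (adjusted p up to 0.129, 0.132 and 0.0937).

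Of 14 tested BCL-2 family genes, 1 fell and none rose. Bcl2l1, which encodes the survival protein BCL-XL that opposes Bax, was at 41.9, 45.0 and 44.6 CPM in sham and 34.5, 25.7 and 31.2 CPM in VSG libraries. The groups did not overlap, and edgeR gave a log2 fold change of -0.52 (SE 0.124) and an adjusted p of 0.0368. That call was lost in 4 of 12 alternatives (adjusted p up to 0.134). Mcl1 and Bcl2l2, survival genes too, differed by 0.16 and -0.04 on the log2 scale (adjusted p 0.497 for Mcl1 and 0.746 for Bcl2l2).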

How the data were processed

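What the authors deposited are raw counts for each gene in 6 libraries. Per the study's methods and the submitters' processing notes, the authors prepared strand-specific poly(A) libraries, aligned reads to mm10 with STAR 2.6.0 and counted them with featureCounts. The annotation, strand option and treatment of multi-mapping reads were not given in the sources used here. Total counts ran from 22804397 to 24191778. Of 55385 gene identifiers 55144 matched GENCODE M21 (GRCm38), which gave symbols and coordinates. The deposited exon length of each gene entered FPKM only.

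The filter was filterByExpr (minimum count 10, minimum total 15), and the test that of edgeR 4.0.16 under R 4.3.3 (glmQLFit, glmQLFTest, group as the only term, TMM scaling), with Benjamini-Hochberg adjustment over all 14454 genes. Standard errors are the log2 fold change divided by the square root of F. Exact permutation of 3 against 3 libraries cannot go below a p of 0.1 and was not used. Alternatives were DESeq2 1.42.0, limma-voom (limma 3.58.1), RLE size factors, total counts, at least 1 count in all libraries together, at least 10 counts in every library, and leaving out each library.

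Named genes were the 10 members, Trp53, every pathway gene with an adjusted p under 0.05, the 2 others of each list with the highest mean CPM, and the 3 genes nearest in pattern to the 3 members with the largest change (distance on log2(CPM + 0.1), mean of at least 5 CPM), of which 1 is not reported here. Ddit4 also came from the search for genes high in 1 library. Phlda3, Trp63 and Trp73 fall outside this rule. Cell type markers came from 10 lists. T, NK and B cell, endothelial and erythroid lists had 0 genes past the threshold, and the cholangiocyte list had 1 (Sox9, higher). The members and lists were chosen with earlier results of these data known. Each library was taken as 1 animal, as the study describes. Libraries of a group differed by more than counting noise (chi-square per degree of freedom of at least 25.2).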

Additional observations from a re-analysis of the deposited data

How the results depend on the processing

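Over the 12 alternatives of each gene, 100 of 120 values of the 10 genes kept their sign and their side of the threshold, 7 passed it and 13 changed sign. The count of the 10 genes called was 0 with all libraries, 2 with DESeq2, 2 with no filter beyond 1 count, 2 with total counts and from 0 to 1 when 1 library was left out. Values of Cdkn1a that passed were log2 fold changes of -1.21 (DESeq2), -1.22 (no filter beyond 1 count), -1.31 (total counts) and -1.65 (without VSG replicate 4), and those of Trp53inp1 -1.32, -1.33 and -1.40 under the first 3 of these. Sign changes outside single-library removal were those of Bax (-0.075, total counts), Btg2 (-0.075, total counts; -0.0078, limma-voom), Usp7 (-0.0011, total counts), Mapk14 (-0.11, total counts; -0.013, no filter beyond 1 count; -8.9e-04, DESeq2) and Map2k4 (-0.11, total counts; -0.0065, no filter beyond 1 count). Leaving out 1 library gave log2 fold changes from -0.13 to 0.037 for Mdm2, -0.21 to 0.20 for Bax, -0.45 to 0.012 for Sesn2, -0.15 to 0.35 for Btg2, -0.077 to 0.64 for Gadd45a, -2.42 to 0.21 for Gadd45g, -0.074 to 0.069 for Mapk14, -0.038 to 0.085 for Map2k4 and -1.65 to -0.91 for Cdkn1a.

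The count over all genes was 2118, 3270 with DESeq2 and from 159 to 2732 without 1 library (1214, 797 and 159 when sham replicate 1, 2 or 3 was omitted, 1076 and 210 when VSG replicate 4 or 6 was). That of the pathway lists was 8, 15 with DESeq2 and from 0 to 10 without 1 library (5, 1 and 0 for sham replicates 1, 2 and 3, and 2 and 0 for VSG replicates 4 and 6). Total-count scaling moved the median of all genes from 0.03 to -0.11 and the share of calls that were higher from 46.3% to 24.3%. Without VSG replicate 5 the counts rose, to 2732 over all genes and 10 in the pathway lists. A fit with fewer libraries has less power, and the cause of any of these changes was not tested. No paired analysis was possible because the groups share no replicate numbers. With 3 libraries a group the 95% intervals of Gadd45a and Gadd45g included 0 and changes of over 2-fold, and so did that of Gadd45b with sham replicate 2 (-0.78 to 0.31 without it).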
